A study of Mus musculus with 5 samples.

Results

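The clustered protocadherins are cell adhesion proteins of neurons encoded in the neighbouring alpha, beta and gamma clusters on mouse chromosome 18. They were taken as all protein-coding genes whose GENCODE M21 symbol names a Pcdha, Pcdhac, Pcdhb, Pcdhga, Pcdhgb or Pcdhgc gene. This rule uses names only and found 57 genes among the 47729 in the count table. The alpha cluster held 14 of them, the beta cluster 22 and the gamma cluster 21. RNA of the brain was sequenced in male mice of C57BL/6, an inbred laboratory strain, at the advanced age of 30 months. The samples, 5 in all, form 1 group without treatment or added genotype in their labels, and are called mice 7, 8, 9, 10 and 11 after their label numbers. The labels say brain and name no region. Errors are SDs over the 5 mice (n = 5), and because nothing states how the samples were separated, these SDs may in part be technical.

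In the alpha and gamma clusters each gene name stands for a variable first exon with its own promoter. That exon encodes the extracellular cadherin repeats, the membrane span and part of the cytoplasmic tail, and it is spliced to constant exons that all genes of the cluster use. Beta genes are single-exon genes without a constant region. A neuron switches on a small, seemingly random set of promoters, chosen through CTCF and cohesin looping to distant enhancers. The C-type genes at the ends of the alpha and gamma clusters are instead thought to be on in most cells of a given type. The proteins bind copies of themselves on opposing membranes, and a matching set lets a neuron recognise and avoid its own branches. In bulk tissue a level averages over cells: fewer cells using a gene and less RNA of it per cell cannot be told apart.

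All 57 genes lie on the plus strand of GRCm38 chromosome 18. The alpha genes span positions 36930184 to 37187661, the beta genes 37264938 to 37524479 and the gamma genes 37661793 to 37841873. A median of 53.6% of the exon length of an alpha gene also belongs to another annotated gene, mostly the shared constant exons of 2860 bases. For a gamma gene the median is 45.2%, with 2119 shared bases in most genes. For a beta gene it is 0%, and only Pcdhb12, Pcdhb21 and Pcdhb22 share any exon base, the last pair with each other over 455 bases. This matters for every level below. RPKM (reads per kilobase of exon and scaled to library total) divides by a length that in alpha and gamma genes includes the constant exons. A second value, RPKM per unshared exon, divides the same counts by the bases that no other annotated gene covers. The values deposited by the authors follow the full length: the lengths they imply were within 1% of the full M21 exon length for all 53 members whose counts averaged 10 or more. Those 53 are called the measured members.

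**Figure D1:**
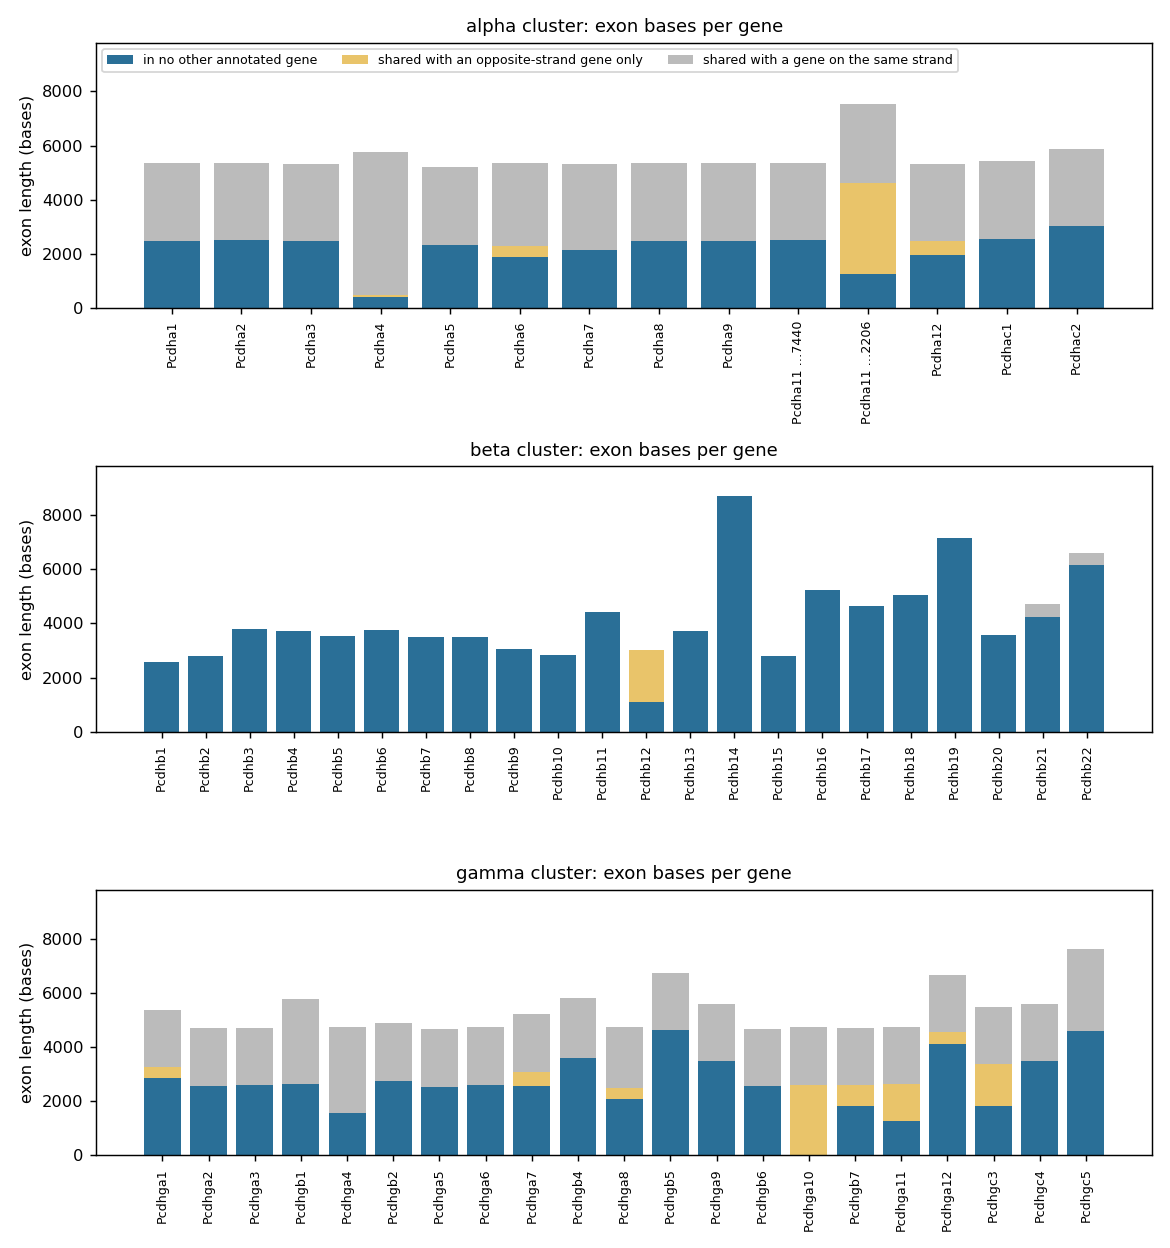
Exon bases of each of the 57 genes (y axis, bases) in chromosomal order (x axis), by cluster; blue bars are bases in no other annotated gene, yellow bars bases shared only with a gene on the opposite strand, and grey bars bases shared with a gene on the same strand. Alpha and gamma genes carry a grey constant part, beta genes almost none, and Pcdhga10 has no blue part.

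Genes without exon sequence of their own were nearly always at 0. Across the whole table, 1031 of 1100 genes without any exon base of their own (93.7%) had 0 counts in all 5 mice. When strand was considered, 423 of these 1100 do have bases of their own, and 404 of them (95.5%) were still at 0. Of 33892 genes with at least 500 own bases, 9286 (27.4%) were at 0. The counting settings are not given here, and whether reads in shared exons were left uncounted was not tested. The 4 other plus-strand genes that share exons with alpha or gamma members and have no base of their own (Gm37013, Gm37388, Gm38182 and Gm42416) each had 0 counts in every mouse.

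A pair of members was listed at 0 in every mouse: Pcdha4 (ENSMUSG00000104252) and Pcdhga10 (ENSMUSG00000102222). Their unshared exon is also the shortest of their clusters. Pcdha4 keeps 404 of 5768 exon bases to itself, and 494 when only genes on its own strand are considered. It shares 2410 bases with the plus-strand gene Gm42416 and 393 with the antisense gene Gm38225, and most of the latter are also shared on its own strand. Pcdhga10 keeps none, because the minus-strand transcript Gm26672 covers the 2613 bases of its variable part. A count of 0 allows up to 3 counts in a library, and since reads in shared exons may not have been counted, these zeros do not show that the genes were silent. Gm26672 itself had 26, 45, 56, 26 and 16 counts in mice 7 to 11. The counts in the opposite-strand genes BC037039, Gm10544, Gm10545, Gm37165, Gm37446 and Gm37753 stayed between 0 and 29 in any mouse, and Gm37118 and Gm38225 were at 0. The plus-strand pseudogene Gm18150, which shares 69 bases with a member, had 3 to 7 counts.

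Another pair of members had counts but did not reach a mean of 10. Pcdhb1 (ENSMUSG00000051663), the first beta gene, had 13, 7, 4, 7 and 12 counts in mice 7 to 11. It has 2588 exon bases, none of them shared with another annotated gene. M21 gives the symbol Pcdha11 to both ENSMUSG00000007440 and ENSMUSG00000102206, and no gene in it is called Pcdha10. The second of these had 9, 9, 12, 15 and 4 counts, and 1268 of its 7535 bases are unshared, with Gm10545 and Gm10544 on the opposite strand. The first had a mean count of 77.6. Pcdhgb8, annotated as a polymorphic pseudogene and therefore not a member, had 4 to 7 counts per mouse.

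Of the 3 clusters, gamma contributed the most RNA and alpha the least. Summed over members, gamma had 365, 413, 491, 450 and 449 CPM (counts scaled to the library total) in mice 7 to 11. The beta cluster had 274, 268, 260, 271 and 197 CPM in the same order. The alpha cluster had 90.9, 81.1, 91.9, 82.5 and 85.7 CPM. In CPM the clusters did not overlap in any pair of mice, and together they made up 774 ± 48.7 CPM.

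How far gamma stood above beta depended on the length used. Per full exon length, summed RPKM was 15.5 ± 0.87 for alpha, 63.1 ± 7.76 for beta and 78.0 ± 8.66 for gamma. The log2 ratio of gamma to beta was then −0.06 in mouse 7, 0.17 in mouse 8, 0.44 in mouse 9, 0.29 in mouse 10 and 0.71 in mouse 11, with a mean of 0.31 ± 0.29. The order of gamma and beta therefore did not hold in mouse 7 on this scale. Per unshared exon, the sums were 33.9 ± 1.93, 65.9 ± 7.77 and 157 ± 18.1 RPKM, and gamma exceeded beta in every mouse, with log2 ratios from 0.87 to 1.65. Alpha was lowest on both scales: beta exceeded it by 2.02 ± 0.21 log2 units per full length and 0.95 ± 0.19 per unshared exon.

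**Figure D2:**
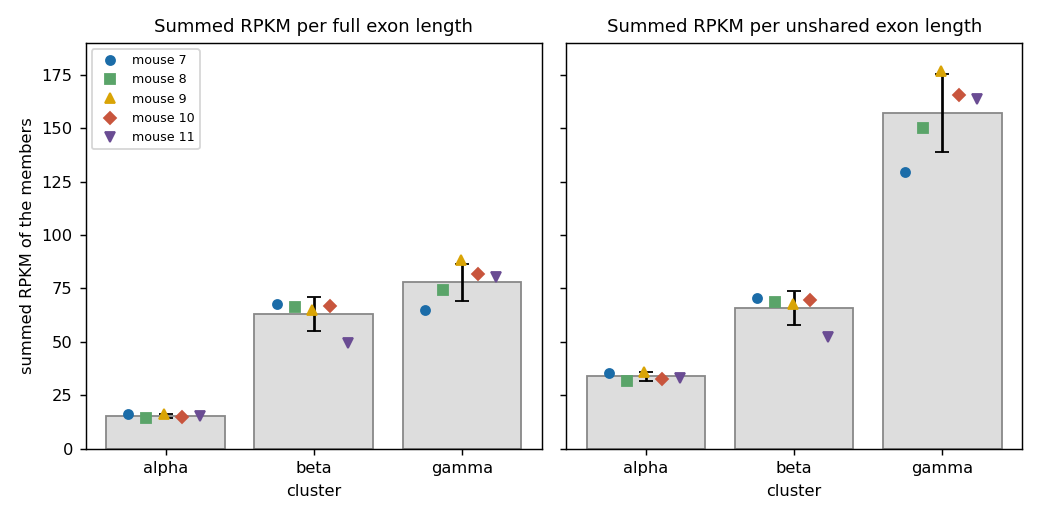
Summed RPKM of the members (y axis) of the alpha, beta and gamma clusters (x axis), divided by full exon length on the left and by unshared exon length on the right; bars are means, error bars SDs and points the 5 mice. The means for gamma are 78.0 on the left and 157 on the right, while those for beta are 63.1 and 65.9.

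Against other genes the members sat low to middling. The median RPKM of the 14242 protein-coding genes that passed the same count filter was 5.24. Per full exon length, 1 of 12 alpha, 1 of 21 beta and 3 of 20 gamma genes lay above it. Per unshared exon, these counts became 1, 1 and 14. The median member of the gamma cluster moved from percentile 38.6 to 55.6 of those genes, that of the alpha cluster from 13.8 to 26.8, and that of the beta cluster from 33.2 to 33.6. Other genes were kept at their full length in both cases. The filter leaves out the 4 members with the fewest counts.

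Within the alpha cluster, RNA was spread over many low genes and 1 high one. Pcdhac2 (ENSMUSG00000102697), the last C-type gene, is needed by serotonin neurons to spread their axons. Its RPKM was 6.51, 5.91, 6.99, 6.01 and 6.77 in mice 7 to 11. It took 43.9% ± 1.78 of alpha counts. Of the summed RPKM it took 41.5% ± 1.72 per full exon length and 37.0% ± 1.66 per unshared exon. Its neighbour Pcdhac1 (ENSMUSG00000103255) had 0.771, 0.983, 0.601, 0.564 and 0.611 RPKM, or 4.45% ± 1.25 of the alpha counts. The C-type genes of this cluster did not overlap between mice.

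Among the other alpha genes, Pcdha12 and Pcdha5 were highest in RPKM. Pcdha12 had 1.33, 0.877, 1.62, 1.61 and 1.68 RPKM in mice 7 to 11, lowest in mouse 8 and next lowest in mouse 7. Pcdha5 had 1.37, 1.30, 1.21, 1.16 and 1.32 RPKM, and Pcdha12 lay above it in 3 of the 5 mice. The 10 measured genes other than Pcdhac1 and Pcdhac2 ranged from 0.362 (Pcdha1) to 1.42 RPKM in their means, a span of 3.93-fold. Their median per unshared exon was 1.86 ± 0.23 RPKM, against 12.5 ± 0.91 for Pcdhac2.

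In the beta cluster, Pcdhb9 (ENSMUSG00000051242) was the highest gene in every mouse. Its RPKM was 10.8, 10.2, 11.2, 9.997 and 7.95 in mice 7 to 11, lowest in mouse 11. It took 12.1% ± 0.739 of the beta counts, against 43.9% for Pcdhac2 in alpha and 23.1% for Pcdhgc5 in gamma. Per unshared exon it took 15.2% ± 0.823 of the summed beta RPKM, against 37.0% for Pcdhac2 and 13.8% for Pcdhgc5 in their clusters. Pcdhb3 followed with 4.79, 4.60, 4.80, 5.45 and 4.19 RPKM, and Pcdhb17 with 5.93, 3.90, 4.29, 5.10 and 2.95 RPKM. These overlapped between mice, so their order is not fixed by the data. Besides Pcdhb1, the beta gene with the lowest mean was Pcdhb12 at 1.53, 1.24, 1.47, 1.52 and 1.51 RPKM. In mouse 11 Pcdhb15 (0.839 RPKM) and Pcdhb16 (0.951 RPKM) lay below it, so this order is not fixed either. The antisense gene Gm37446 covers 63.5% of the exon of Pcdhb12, whose mean per unshared exon was 3.99 RPKM, above the beta median of 2.66. The 21 measured beta genes spanned 6.89-fold in RPKM.

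The gamma cluster was led by a C-type gene as well. Pcdhgc5 (ENSMUSG00000102543), whose protein is known to bind GABA-A receptors at synapses, had 11.4, 12.5, 15.4, 12.6 and 13.7 RPKM in mice 7 to 11. Pcdhgc3 (ENSMUSG00000102918), whose cytoplasmic tail binds the Wnt pathway inhibitor Axin1, had 4.42, 4.87, 5.17, 7.29 and 7.93 RPKM. Mice 10 and 11 lay apart from the other 3 mice in this gene. Pcdhgc4 (ENSMUSG00000023036), the gamma gene whose loss costs interneurons and postnatal survival, had 3.41, 3.40, 3.30, 3.80 and 4.50 RPKM. The 3 genes took 35.4% ± 1.95 of gamma counts, and Pcdhgc5 alone 23.1% ± 1.05. Of the summed RPKM, Pcdhgc5 took 16.8% ± 0.835 per full exon length and 13.8% ± 0.781 per unshared exon.

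Pcdhgc5 exceeded Pcdhgc3 by 1.18 ± 0.36 log2 units of RPKM and did so in 5 of 5 mice. A two-sided permutation test that flips signs over the mice gave an exact p = 0.0625, the smallest that 5 mice allow, so no pair could pass 0.05. Per unshared exon the difference was 0.31 ± 0.36 (exact p = 0.25), with −0.08 in both mouse 10 and mouse 11. The antisense gene BC037039 overlaps 1559 bases of Pcdhgc3, which keeps 1821 of 5499 bases unshared. When only genes on its own strand are considered, Pcdhgc3 keeps 3380 bases. That longer length would lower its value per unshared exon, and the difference was not computed with it. BC037039 had 10, 8, 2, 7 and 21 counts in mice 7 to 11, against a mean of 539 for Pcdhgc3.

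The other C-type differences kept their size on both scales or grew. Pcdhac2 exceeded Pcdhac1 by 3.22 ± 0.39 log2 units, or 9.31-fold, and by 3.10 ± 0.39 per unshared exon. Pcdhgc5 exceeded Pcdhgc4 by 1.83 ± 0.24, and by 1.88 ± 0.24 per unshared exon. Pcdhgc3 exceeded Pcdhgc4 by 0.66 ± 0.23, and by 1.57 ± 0.23 per unshared exon, where Pcdhgc3 has only the 1821 bases unshared on either strand. All 3 had the same sign in 5 of 5 mice and an exact p = 0.0625 on both scales. Adjusted by the Benjamini-Hochberg method over the 4 pairs, the RPKM values stayed at 0.0625, and those per unshared exon became 0.0833 for these 3 pairs and 0.25 for Pcdhgc5 and Pcdhgc3.

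**Figure D3:**
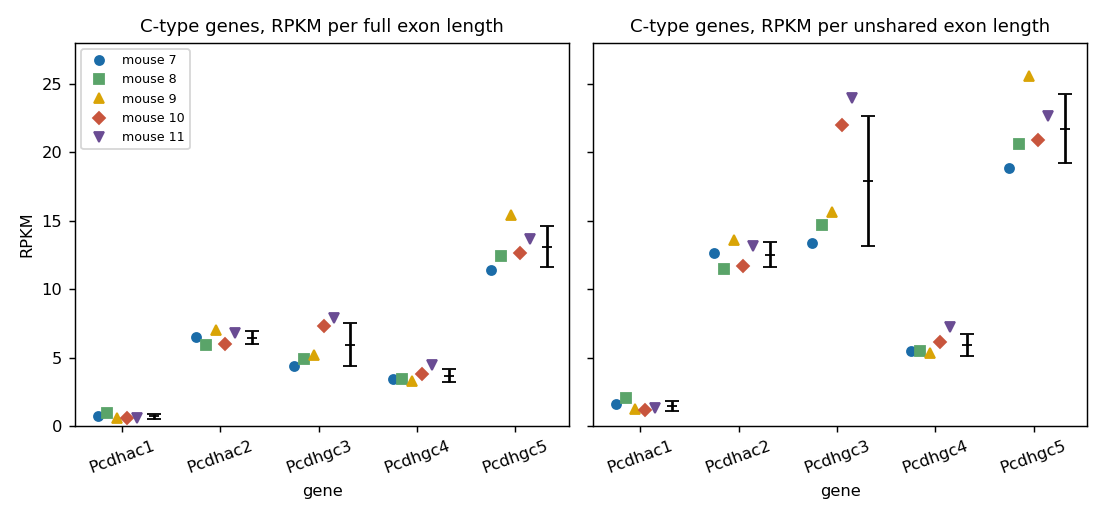
RPKM (y axis) of the 5 C-type genes (x axis) per full exon length on the left and per unshared exon length on the right; points are the 5 mice, and the black mark and bar beside them are the mean and SD. Pcdhgc5 stands above Pcdhgc3 in all mice on the left, and the genes overlap on the right.

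The A and B genes of the gamma cluster alternate along the chromosome but were not equal in level. Per unshared exon, the median of the 11 measured A genes was 6.85, 8.19, 8.83, 7.99 and 8.47 RPKM in mice 7 to 11. That of the 6 B genes was 3.35, 4.09, 4.75, 4.70 and 4.22 RPKM, below the A genes in every mouse. Both groups had wide ranges: the means ran from 3.10 (Pcdhga1) to 11.2 RPKM (Pcdhga6) for A and from 2.26 (Pcdhgb5) to 8.18 RPKM (Pcdhgb6) for B. Per full exon length Pcdhga6 had 5.35, 6.08, 7.32, 6.53 and 5.56 RPKM, the highest mean of the A and B genes. Pcdhgb5, the lowest with counts, had 1.32, 1.52, 1.92, 1.29 and 1.69 RPKM. Of all gamma counts, A genes took 47.4% ± 1.37 and B genes 17.3% ± 0.712.

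**Figure D4:**
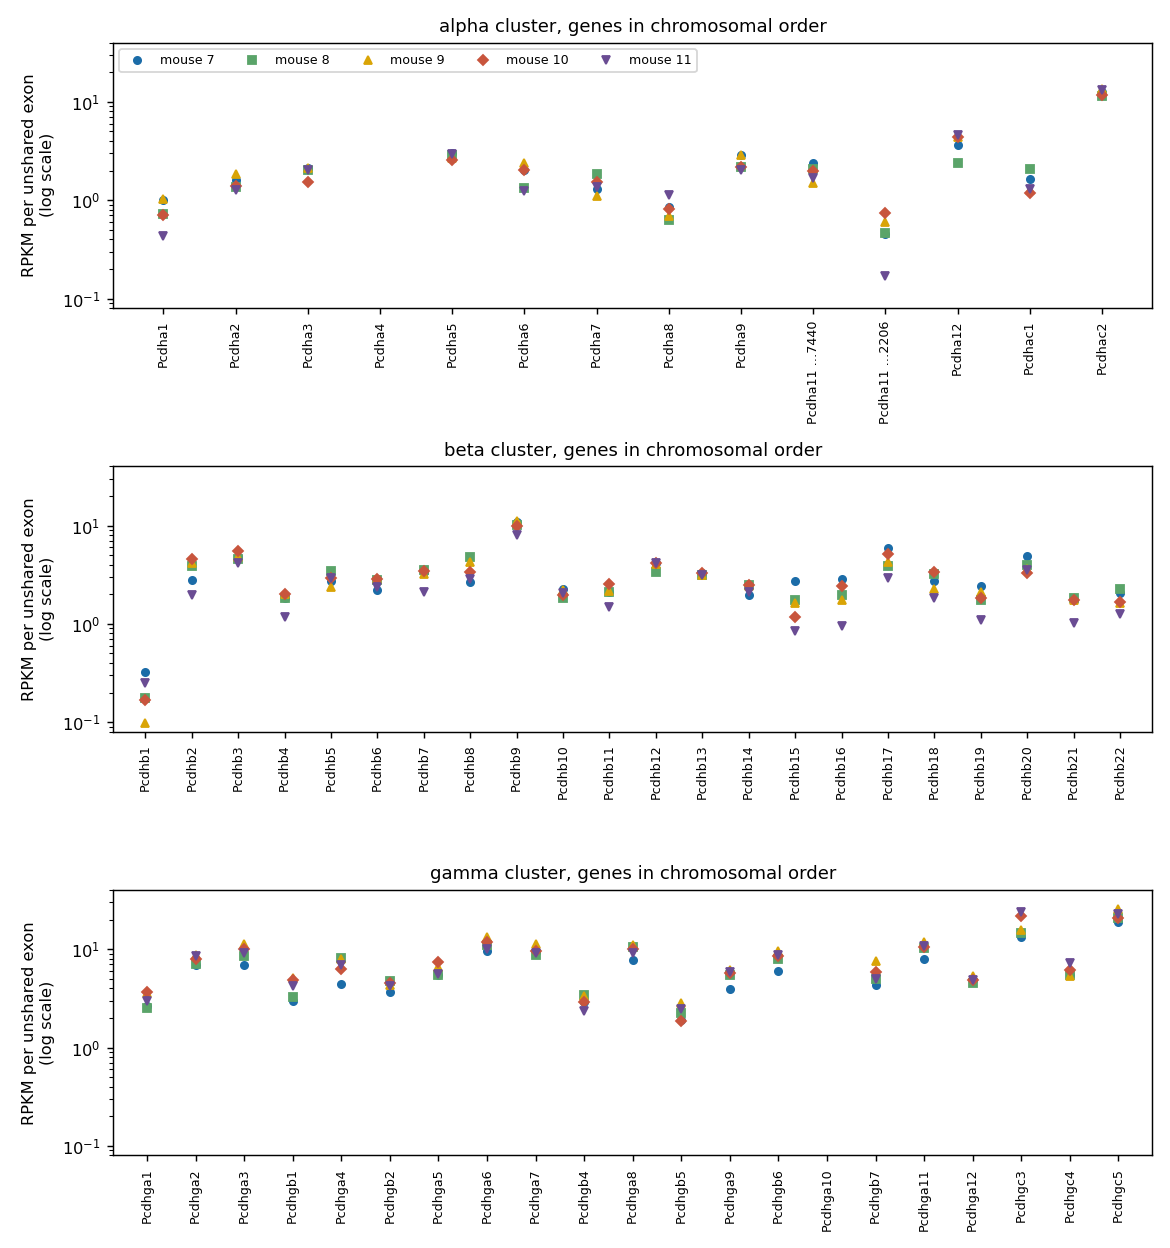
RPKM per unshared exon (y axis, log scale) of each gene in chromosomal order (x axis), with 1 point per mouse; Pcdha4 and Pcdhga10 had 0 counts and have no points. The points of Pcdhac2, Pcdhb9 and Pcdhgc5 lie above those of the other genes of their clusters, except that Pcdhgc3 overlaps Pcdhgc5.

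The mice largely shared 1 order of genes within a cluster. Between any pair of the 5 mice, Spearman's rho over the 20 measured gamma genes ranged from 0.953 to 0.982, as a description over genes. Over the 12 alpha genes it ranged from 0.790 to 0.937, and over the 21 beta genes from 0.630 to 0.927. The same exon lengths and base composition enter every mouse.

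No member was called variable between mice. In edgeR's quasi-likelihood fit with a Benjamini-Hochberg threshold of 0.05, 0 of 53 members were called, and 0 of all 16318 genes tested (0% called). The lowest adjusted p among members was 0.981, for Pcdhb16. At an unadjusted p under 0.05 there were 786 genes (4.82% of those tested) and 0 members. DESeq2 marked 49 genes as dispersion outliers (0.3%), and 0 of them were members. The median biological coefficient of variation was 0.240 for alpha, 0.216 for beta and 0.198 for gamma genes, and 0.221 over all genes tested. Of the 53 members, 31 lay below that median, which by definition has as many genes below it as above it. The median over all members was 0.215. With a mean count of at least 50 it was 0.207, against 0.198 over all genes, so the direction depended on the setting.

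The 3 members with the largest spread between mice belonged to the beta cluster. Pcdhb15 had 2.76, 1.76, 1.62, 1.18 and 0.839 RPKM in mice 7 to 11, an SD of 0.61 in log2 CPM. Pcdhb16, its next neighbour, had 2.84, 1.98, 1.75, 2.43 and 0.951 RPKM (SD 0.57). Mouse 7 had the most and mouse 11 the least of both. Pcdhb2 had 2.77, 3.83, 4.18, 4.54 and 1.96 RPKM (SD 0.47), also lowest in mouse 11 but highest in mouse 10. Pcdhb13 varied least of the measured members, between 3.11 and 3.31 RPKM.

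Many gamma genes shifted together in mouse 7, and most beta genes in mouse 11. Each gene's log2 CPM was set against its own mean over the mice, and the differences were averaged within a cluster. The gamma genes averaged −0.28, −0.07, 0.20, 0.06 and 0.09 in mice 7 to 11. In mouse 7, 20 of 20 gamma genes lay below their mean, against 53.6% of all 16318 genes, and in mouse 9, 15 of 20 had their highest value, against 14.1% of all genes. A genes (−0.28), B genes (−0.29) and C-type genes (−0.25) were alike in mouse 7. In mouse 11 the C-type genes averaged 0.33, against 0.06 for A and 0.04 for B genes.

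The beta genes averaged 0.10, 0.08, 0.06, 0.08 and −0.32, and 13 of 21 had their lowest value in mouse 11, against 32.7% of all genes. The cluster was uneven: the 9 genes from Pcdhb14 to Pcdhb22 averaged 0.31 in mouse 7 and −0.48 in mouse 11. The 12 measured genes up to Pcdhb13 averaged −0.05 and −0.21 in those mice. Without mouse 11, the averages of the beta cluster lay between −0.02 and 0.02 in the other mice. The alpha genes averaged 0.11, −0.08, 0.07, −0.06 and −0.04. Genes of a cluster lie side by side and share promoter elements, so they are not independent, and no test was made of these averages.

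The beta shift became smaller once base composition and length were accounted for. The unshared exons of beta genes have a median GC content of 46.1%, against 52.9% in alpha and 51.3% in gamma genes. Each library's trend over all genes on the GC content and length of unshared exons was removed, with full exons used for genes without unshared ones. The beta average in mouse 11 was then −0.10 in place of −0.32. Then 9 of 21 beta genes had their lowest value in mouse 11, against 25.4% of all genes. In that mouse 13 of 21 lay below their mean, against 46.6% of all genes. Before the trends were removed, 17 of 21 did, against 47.4% of all genes. The gamma average in mouse 7 was −0.23 in place of −0.28, and 20 of 20 genes stayed below their mean. The alpha averages became 0.23 in mouse 7 and −0.28 in mouse 11.

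**Figure D5:**
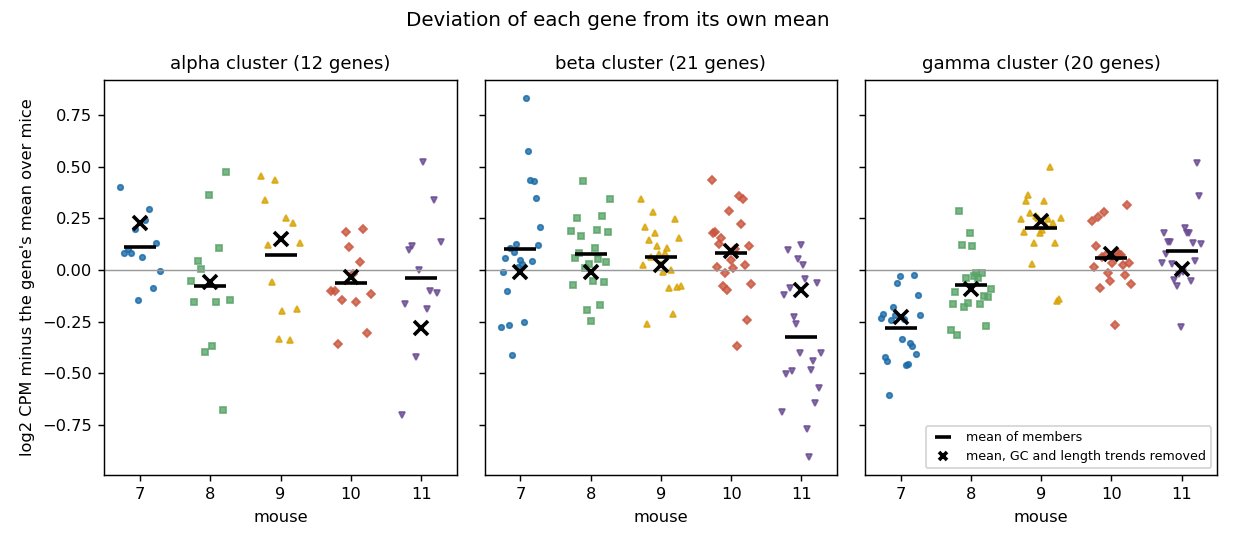
Log2 CPM of each gene minus its own mean over the mice (y axis) in the 5 mice (x axis), by cluster; points are genes, black bars the mean of the genes and black crosses that mean after trends on GC content and length were removed. In the beta cluster the mouse 11 bar lies at −0.32 and its cross at −0.10, and in the gamma cluster the mouse 7 marks lie at −0.28 and −0.23.

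Marker genes of the main brain cell types were measured in every mouse, and some of their sums moved beside these shifts. The 7 neuron markers summed to 4622 CPM in mouse 11 and to 5732 to 6855 CPM in the others. Their members went both ways there: Snap25, Syt1 and Map2 were lowest and Rbfox3 and Tubb3 highest in mouse 11, and their log2 deviations averaged −0.04. The 6 astrocyte markers summed to 4339 CPM in mouse 11 and 5341 to 6249 CPM in the others. Slc1a2 was lowest and Aldh1l1 highest in mouse 11, and the list averaged −0.13. Oligodendrocyte markers summed to 4064 CPM in mouse 9 and 5086 to 5604 CPM in the others. The summed microglial markers ranged from 252 to 327 CPM, endothelial ones from 193 to 218, choroid plexus ones from 438 to 680 and erythroid ones from 45.3 to 142. None of these markers was at 0 in all mice. Their part in the levels of the beta and gamma genes was not tested.

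Serotonin neuron markers differed far more between mice than Pcdhac2. The 5 markers summed to 63.6, 101, 19.7, 41.3 and 57.7 CPM in mice 7 to 11, while Pcdhac2 had 38.3, 34.8, 41.2, 35.4 and 39.8 CPM. Tph2, which makes serotonin, ranged from 0.288 RPKM in mouse 9 to 7.51 in mouse 8. In CPM, Pcdhac2 was highest in mouse 9, where the marker sum was lowest, and lowest in mouse 8, where that sum peaked. With TMM scaling, its log2 deviation from its own mean was 0.130 in mouse 9 and 0.135 in mouse 11, so its peak depended on the scaling. The marker Fev was highest in mouse 11 (0.958 RPKM) and not in mouse 8 (0.321 RPKM). Genes of cerebellar granule cells also differed. Cbln3 had 1.20, 0.067, 0, 5.01 and 0.241 RPKM, and Gabra6 had 1.34, 0.052, 0, 3.18 and 0 RPKM. The olfactory bulb markers Tbx21 and Eomes stayed between 0.104 and 0.705 RPKM. The part of these populations in the members' levels was not tested.

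The genes that work with the protocadherins were nearly all expressed. Of 14 genes of insulation and cohesin, which loop promoters to enhancers, 13 passed the count filter. In edgeR's test 0 of 13 were called (0% of all genes), and 6 had an unadjusted p under 0.05, as did 4.82% of all genes. Rad21, a cohesin ring subunit, was highest at 44.6 ± 2.56 RPKM, and Ctcfl, the germ-cell relative of Ctcf, was listed at 0 in every mouse. Ctcf had 14.8, 15.2, 17.0, 16.3 and 12.3 RPKM. As a group these genes averaged 0.63 log2 units above their means in mouse 7 and −0.53 in mouse 11. Stag2, a cohesin subunit, ran from 13.4 to 2.79 RPKM between those mice. Not every gene of the list moved so: Rad21 had 42.4 RPKM in mouse 7 and 41.4 RPKM in mouse 11. The averages of this list are given without removal of GC and length trends. In mouse 7 the beta genes averaged 0.10 and the gamma genes −0.28. In mouse 11 the beta genes averaged −0.32, or −0.10 with GC and length trends removed, and the gamma genes 0.09. Any link to the cohesin genes was not tested.

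Of 17 genes of DNA methylation and silencing, 0 were called (0% of all genes) and 2 had an unadjusted p under 0.05 (4.82% of all genes). The highest was Trim28, a corepressor, at 32.9 ± 3.76 RPKM, and the lowest Uhrf1, a partner of the maintenance methylase, at 0.221 ± 0.112. Dnmt3b, which methylates protocadherin promoters in the embryo, had 0.230 ± 0.060 RPKM. Smchd1, a chromosomal protein known to repress these clusters, had 3.16, 2.20, 1.88, 1.71 and 1.01 RPKM. Of 15 genes for cleavage and kinase signalling, 0 were called and 0 had an unadjusted p under 0.05, against the same 0% and 4.82%. They ranged from Psen2, a gamma-secretase subunit, at 3.31 ± 0.426 RPKM to Ptk2b, the kinase PYK2 that the constant domains bind, at 67.7 ± 7.20. Of the 10 genes of the WAVE complex, the actin regulator recruited by the alpha tail, 0 were called and 0 had an unadjusted p under 0.05, against 0% and 4.82% of all genes. Cyfip2 was highest at 240 ± 22.0 RPKM and Wasf2 lowest at 5.64 ± 1.11.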

How the data were processed

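The authors deposited whole-number counts per Ensembl gene for the brain of 5 mice. The submitters' processing notes name GRCm38 and, with no role or order, featureCounts 1.4.6-p4, STAR 2.4.1d and CASAVA 1.7; strand and overlap settings are not given in the sources used here. The authors also deposited RPKM, whose library totals are rotated between samples (0 of 12729 genes gave lengths within 1% of each other with own totals, 12729 with totals taken in turn), so RPKM were recomputed from counts with own totals and GENCODE M21 merged exon lengths. Libraries held 15392006 to 18723390 counts. Small counts limit the precision of low members, and a floor of 3 counts covers counting error only.

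Exon bases in no other M21 gene on either strand gave the unshared length. The spread between mice was tested with edgeR 4.0.16 (intercept only, TMM scaling, mean count of at least 10), with each gene's dispersion set against a robust F distribution (limma 3.58.1) and Benjamini-Hochberg adjustment. Deviations use log2 CPM with a prior count of 1. Alternatives were DESeq2 1.42.0, other scalings and filters, unshared, implied and deposited lengths, removal of cubic GC and length trends, and leaving out each mouse.

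The members, gene lists and tests were chosen with earlier results of these data known. Named members are the 3 highest and 2 lowest by RPKM of each cluster, all C-type genes and the 3 with the largest SD of log2 CPM; named partners are the highest and lowest of each list. Pcdha1, Pcdhb13, Pcdhb14, Pcdhb22, Pcdhga1, Pcdhgb6, Ctcf, Stag2, Dnmt3b, Smchd1, Tph2, Cbln3, Gabra6 and the single cell type markers named were named after their values were seen, as were the genes in the closing section that these rules do not take.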

Additional observations from a re-analysis of the deposited data

Results flagged for a closer look

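In 7 of 69 values examined, 1 mouse lay far from the other 4: its gap to the nearest of them was more than 0.71 of the whole range. Chance alone flags about 1 in 20 such groups, and the values are not independent. Mouse 11 stood low in 5 of these. It had 4.38 CPM of Pcdhb4 (others 6.88 to 7.48), 7.32 CPM of Pcdhb7 (others 11.2 to 12.3) and 4.33 CPM of Pcdhb21 (others 7.42 to 7.80). Its summed beta cluster was 197 CPM (others 260 to 274), and its gamma A genes took 45.0% of gamma counts (others 47.6% to 48.3%). Mouse 10 had 3.80 CPM of Pcdha3 (others 4.97 to 5.27). Mouse 8 had 3.77 CPM of Pcdhb12 (others 4.47 to 4.63). The test across all genes called none of these genes variable, nor any other of the 16318 tested, so it does not set them apart.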

How the results depend on the processing

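Of the recomputed values, 245 kept their direction and their side of the threshold or stayed within the spread, 9 moved and 2 counts rose. Dividing by unshared exon length moved the summed RPKM of alpha to 33.9 and of gamma to 157, the log2 ratio of gamma to beta to 1.26 and of beta to alpha to 0.95, the share of Pcdhac2 to 37.0% and that of Pcdhgc5 to 13.8%. The C-type pairs were counted as kept, although that length changed the size of some. The mean log2 ratio of Pcdhgc5 to Pcdhgc3 went from 1.18 to 0.31, with −0.08 in mice 10 and 11. That of Pcdhgc3 to Pcdhgc4 went from 0.66 to 1.57. Removing GC and length trends moved the alpha average to 0.23 in mouse 7 and −0.28 in mouse 11, and the beta average in mouse 11 to −0.10. The number of genes called variable was 230 without a filter on low counts and 49 as DESeq2 dispersion outliers, against 0, and 0 members were called under either. No paired analysis was possible because the labels give 1 group. Limits are the single group, the counting settings that were not given, and low counts of alpha genes.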
